A study of Rattus norvegicus with 15 samples.

Results

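MERGE.1557 is an unnamed locus measured in the rat abdominal aorta, with IDs written as the locus and isoform numbers of a transcript assembly. It is described here through all isoforms whose ID starts with that number. The tables hold 5 of them, MERGE.1557.2 to MERGE.1557.6, among 39097 transcripts listed for all 15 libraries. A filter on low values kept the transcripts that reached 1 in at least 5 libraries, 29095 in all, and all 5 isoforms were among them. An isoform numbered 1 was not listed for any library. The deposited files pair neither this locus nor its isoforms with a gene name, a position or a sequence, so it is called by its number and no sequence is printed.

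RNA was sequenced from 3 groups of 5 rats after 10 weeks of treatment. The first was the normotensive Wistar Kyoto strain on double distilled water (WKY), the second the spontaneously hypertensive strain on double distilled water (SHR), and the third SHR given neferine at 10 mg/kg per day (SHR+Nef). The neferine libraries are numbered 1, 2, 4, 5 and 6 in the labels. The labels give no age, sex or route of dosing, and the series text speaks of mice where the sample labels speak of rats. WKY is a separate inbred strain, so a difference between SHR and WKY covers strain as well as blood pressure. The 15 libraries were treated as 15 rats, although no label says so in words, and the spread would be technical if a rat had given more than 1.

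As background, SHR is a rat strain bred for high blood pressure, with WKY as its usual control. Neferine is an alkaloid of the lotus seed that has been studied for its action on blood vessels. An assembled locus is a stretch of the genome where an assembler joins reads into transcript models, and isoforms are models of 1 locus that differ in exons or ends. Isoforms of 1 locus usually share much of their sequence, so reads from shared exons are divided among them by a statistical estimate. The sum over a locus depends less on that division than the value of a single isoform does.

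The locus came to attention through the comparison of SHR+Nef with SHR, in which 2 of the 29095 transcripts tested were called, a share of 0.00687% (limma, adjusted p under 0.05). Both were isoforms of this locus, MERGE.1557.2 and MERGE.1557.5. Neither call held, and 0 transcripts were called, under a pseudocount of 0.1, a minimum of 5 in 5 libraries or the replicate number as a block (limma; 1693, 680 and 1905 had an unadjusted p under 0.05). Under the block the differences of these 2 isoforms were no smaller, but their standard errors were larger. With only SHR and SHR+Nef in the model isoform 5 lost its call and isoform 2 kept it, among 4 transcripts called. The isoforms were thus chosen by their measured levels in these libraries, and the levels are given as a description without a test. The deposited value is an abundance per transcript on a scale, such as FPKM or TPM, not given in the sources used here, and depth in reads is unknown. Each SHR+Nef table lists 41162 transcripts and each WKY or SHR table lists 41871, and whether all were quantified in 1 run is not given either. Any effect of that on comparisons with SHR+Nef cannot be told apart from the treatment. Over all transcripts tested, the median difference between SHR+Nef and SHR was 0.06 on the log2(value + 1) scale.

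The libraries' values summed to between 496460 and 746274. SHR replicate 4 stood apart, with 8259 of the 39097 common transcripts at 0 against 2560 to 3739 in the other 14 libraries. Where it decided a separation of the groups, the result without it is given as well. The labelled tissue could not be checked against marker genes, since no transcript ID was paired with a gene name. In bulk tissue, more cells of a type and more RNA per cell cannot be told apart.

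Summed over its 5 isoforms, the locus was low in WKY, higher in SHR and highest under neferine. In WKY the sum was 4.74 in replicate 1, 2.82 in replicate 2, 2.59 in replicate 3, 6.43 in replicate 4 and 4.64 in replicate 5. In SHR it was 6.53, 6.85, 14.6, 8.93 and 6.69 in replicates 1 to 5. In SHR+Nef it was 33.3, 27.8, 28.6, 32.2 and 28.1 in replicates 1, 2, 4, 5 and 6. Every neferine library thus lay above every library of untreated SHR, and the lowest of them was 1.90 times the highest untreated one, SHR replicate 3. The step from WKY to SHR was of another kind: the groups did not overlap, but the lowest SHR value and the highest WKY value differed only by a factor of 1.02.

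WKY had a mean sum of 4.24 ± 1.58, SHR one of 8.73 ± 3.45 and SHR+Nef one of 30.0 ± 2.54 (SD, n = 5 each). As a percentage of the mean, the SD came to 37.2% for WKY, 39.5% for SHR and 8.48% for SHR+Nef. Relative to its mean the sum thus varied least among the neferine libraries, while the SD itself was smallest in WKY. The ratio of means was 3.44 for SHR+Nef over SHR, 2.06 for SHR over WKY and 7.07 for SHR+Nef over WKY. Ratios of medians, which SHR replicate 3 affects less, were 4.18, 1.48 and 6.17 in the same order. On the log2(value + 1) scale the sum differed by 1.73 with a standard error of 0.23 between SHR+Nef and SHR, and by 0.88 with a standard error of 0.23 between SHR and WKY. Without SHR replicate 4 these differences were 1.75 and 0.86, and without SHR replicate 3 they were 1.92 and 0.70. The SHR libraries enter both differences, so the 2 are not independent.

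Other loci give the scale of these values. Of 10401 assembled loci with a sum of at least 1 in 5 or more libraries, 17 had a larger difference toward SHR+Nef over SHR, and the median over all loci was 0.05. For SHR over WKY, 353 loci had a larger difference toward SHR, and the median was -0.01. Locus sums that did not overlap and were higher in SHR+Nef made up 0.827% of the loci for SHR+Nef against SHR and 3.54% for SHR+Nef against WKY. For SHR over WKY the share was 2.04%.

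**Figure D1:**
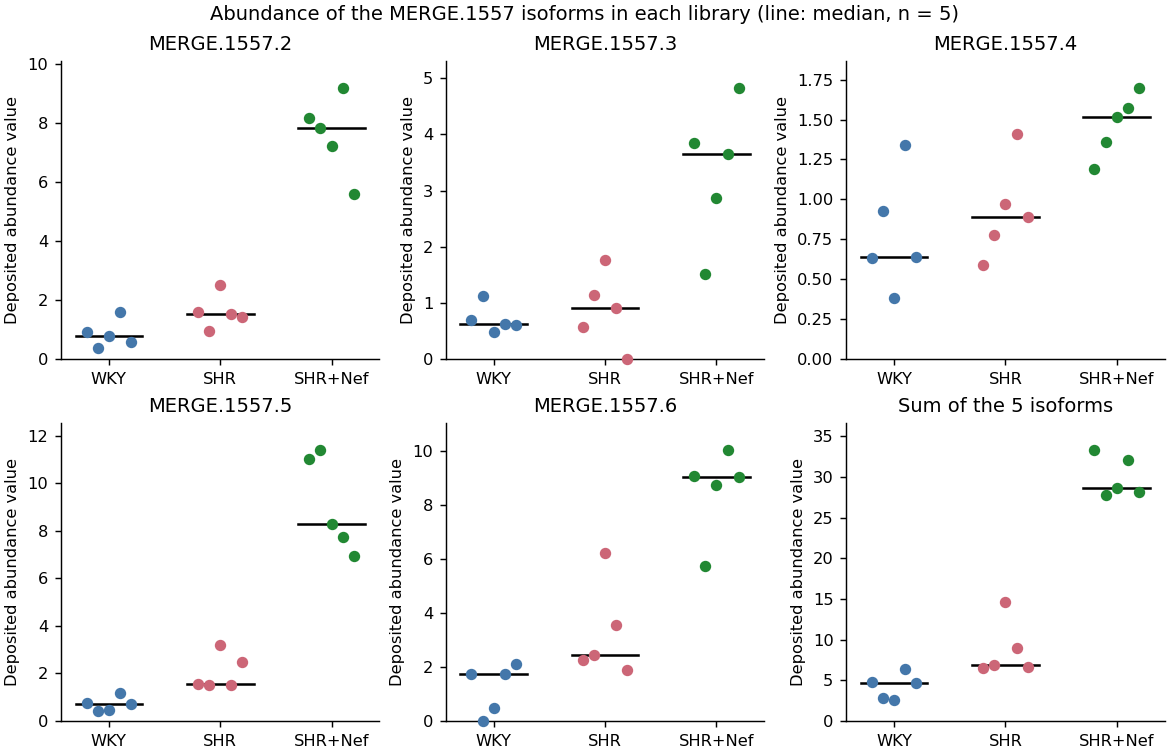
Deposited abundance value (y axis, linear, a separate scale in each panel) of each MERGE.1557 isoform and of their sum, by group (x axis). Each point is 1 library in order of replicate number, and the line is the median of 5. In isoforms 2 and 5 and in the sum all SHR+Nef points lie above all SHR points, while in isoforms 3, 4 and 6 the groups overlap.

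The isoforms differed in how far they followed the sum. In SHR+Nef against SHR, 2 of the 5 isoforms did not overlap, beside 0.753% of all transcripts tested that were higher in SHR+Nef without overlap. These are the isoforms that chose the locus, so nothing is read from the count. All 5 isoforms had a higher mean on the log2(value + 1) scale in SHR+Nef than in SHR, with a median difference of 1.23. Of 208 loci with 5 tested isoforms, 18 (8.65%) had all of them higher in SHR+Nef, this locus included. Outside SHR+Nef, MERGE.1557.3 and MERGE.1557.4 reached 1 in fewer than 5 libraries, so they passed the filter only through the neferine group. MERGE.1557.2 and MERGE.1557.5 chose the locus, so nothing is read from this count either.

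MERGE.1557.2 was at 0.923, 0.359, 0.78, 1.57 and 0.563 in WKY replicates 1 to 5. Its values were 1.59, 0.956, 2.49, 1.54 and 1.44 in SHR replicates 1 to 5, and 8.18, 7.82, 7.20, 9.17 and 5.60 in SHR+Nef replicates 1, 2, 4, 5 and 6. The lowest neferine library was 2.25 times the highest SHR library, and WKY and SHR overlapped, with 2 of 5 SHR libraries above all of WKY. The means were 0.84 ± 0.463, 1.60 ± 0.555 and 7.59 ± 1.33 (SD, n = 5 each), and the ratio of SHR+Nef to SHR was 4.75. On the log2(value + 1) scale the difference was 1.73 with a standard error of 0.21.

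MERGE.1557.5 was at 0.739, 0.422, 0.467, 1.16 and 0.702 in WKY replicates 1 to 5. In SHR replicates 1 to 5 it stood at 1.53, 1.53, 3.21, 1.51 and 2.48, and in SHR+Nef replicates 1, 2, 4, 5 and 6 at 11, 11.4, 8.28, 7.72 and 6.93. All 3 groups were apart: each SHR value exceeded each WKY value, and the lowest neferine value was 2.16 times the highest SHR value. It was the only isoform with WKY and SHR apart, 1 of 5, beside 1.44% of all transcripts tested that were higher in SHR than in WKY without overlap. The means were 0.698 ± 0.293, 2.05 ± 0.769 and 9.07 ± 2.01 (SD, n = 5 each). The ratios of means were 2.94 for SHR over WKY and 4.41 for SHR+Nef over SHR.

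MERGE.1557.6 was the most abundant of the 5 in 4 of 5 SHR libraries. It was at 1.76, 0, 0.483, 1.74 and 2.12 in WKY replicates 1 to 5, and the 0 in replicate 2 can be a failed estimate. It was at 2.25, 2.44, 6.21, 3.56 and 1.88 in SHR replicates 1 to 5, and at 9.09, 5.74, 8.74, 10.04 and 9.05 in SHR+Nef replicates 1, 2, 4, 5 and 6. A single crossing joined SHR and SHR+Nef here: SHR replicate 3 lay above SHR+Nef replicate 2, and the other 4 neferine libraries lay above all SHR libraries. The medians were 1.74, 2.44 and 9.05, and the log2(value + 1) difference was 1.22 with a standard error of 0.33 between SHR+Nef and SHR.

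MERGE.1557.3 was at 0.695, 1.11, 0.482, 0.616 and 0.609 in WKY replicates 1 to 5. It stood at 0.575, 1.14, 1.76, 0.911 and 0 in SHR replicates 1 to 5, and at 3.84, 1.51, 2.86, 3.64 and 4.82 in SHR+Nef replicates 1, 2, 4, 5 and 6. The SHR range enclosed that of WKY, and the same pair of libraries as for isoform 6, SHR replicate 3 and SHR+Nef replicate 2, made the treated and untreated SHR groups overlap. The medians were 0.616, 0.911 and 3.64. The log2(value + 1) difference was 1.23 with a standard error of 0.27 for SHR+Nef against SHR and 0.07 with a standard error of 0.27 for SHR against WKY.

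MERGE.1557.4 differed least between SHR+Nef and the other groups. It was at 0.629, 0.925, 0.38, 1.34 and 0.641 in WKY replicates 1 to 5, at 0.587, 0.777, 0.973, 1.41 and 0.89 in SHR replicates 1 to 5, and at 1.19, 1.36, 1.51, 1.57 and 1.70 in SHR+Nef replicates 1, 2, 4, 5 and 6. Its highest SHR value came from replicate 4, the library with many transcripts at 0, and without that library the SHR+Nef and SHR values did not overlap. The means were 0.783 ± 0.366, 0.927 ± 0.307 and 1.47 ± 0.197 (SD, n = 5 each). The ratio of SHR+Nef to SHR was 1.58, against 4.75 for isoform 2 and 4.41 for isoform 5, and the log2(value + 1) difference was 0.37 with a standard error of 0.17. A difference on this scale understates the change of low transcripts, but the ratios of means place isoform 4 last as well.

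Between SHR and WKY 0 of the 5 isoforms was called (limma, adjusted p from 0.0831 to 0.947), beside 1.14% of the transcripts tested. The SHR libraries also entered the comparison that chose the locus. The description of the locus as raised in SHR thus rests on the separation of the sums and of isoform 5, and no single isoform passed the test. Between SHR+Nef and WKY, 4 of the 5 isoforms did not overlap, beside 2.68% of all transcripts tested that were higher in SHR+Nef. Isoform 4 was the exception through 1 pair of libraries: SHR+Nef replicate 1, at 1.19, lay below WKY replicate 4, at 1.34. Without either of them all 5 isoforms were apart. The ratios of means in that comparison ran from 1.87 for isoform 4 to 13.0 for isoform 5. It shares the neferine libraries with the comparison that chose the locus. Isoforms 3 and 4 also passed the filter only through those libraries.

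**Figure D2:**
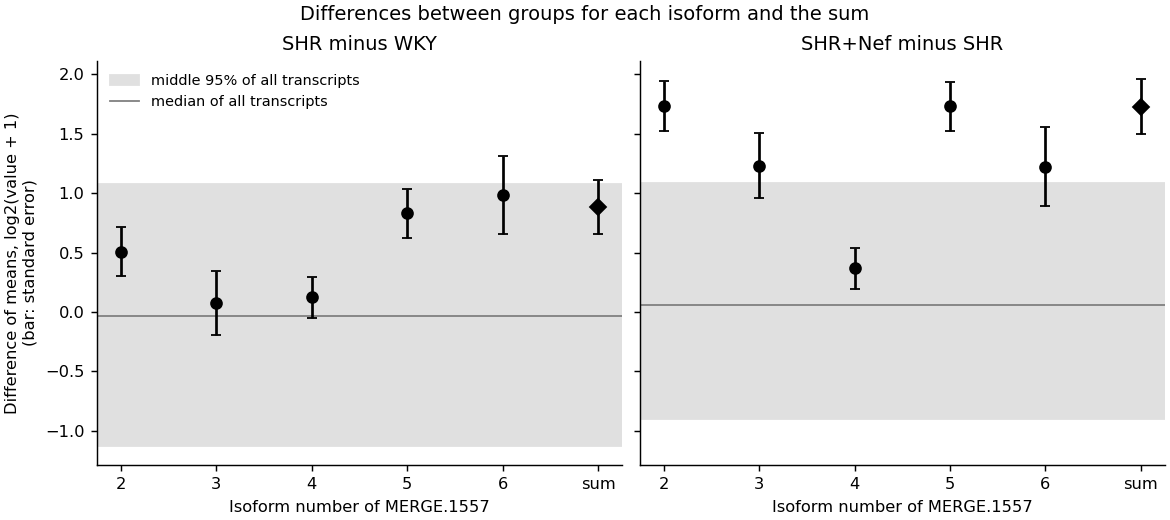
Difference of group means on the log2(value + 1) scale (y axis) for isoforms 2 to 6 of MERGE.1557 and their sum (x axis), SHR minus WKY on the left and SHR+Nef minus SHR on the right. Bars are standard errors from the limma model, the band holds the middle 95% of all 29095 transcripts tested and the grey line is their median. With neferine all but isoform 4 lie above the band, and between SHR and WKY all lie within it.

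Of the difference in mean sum between SHR+Nef and SHR, isoform 5 made up 33.0%, isoform 2 made up 28.2%, isoform 6 made up 24.7%, isoform 3 made up 11.6% and isoform 4 made up 2.53%. Between SHR and WKY isoform 6 made up 45.7%, isoform 5 made up 30.3% and isoform 2 made up 17.0%. The same 3 isoforms thus held most of both differences, in another order.

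The make-up of the locus was followed as each isoform's share of the sum. These shares come from the same libraries that chose the locus and carry no test. If the values are per length, as FPKM and TPM are, they are shares of RNA molecules. Isoform 4 held 19.1% ± 8.25 of the WKY sum, 11.2% ± 3.58 of the SHR sum and 4.93% ± 0.896 of the SHR+Nef sum (SD, n = 5 each). The medians were 14.7%, 11.3% and 4.89%. The highest WKY share came from replicate 2, in which isoform 6 was at 0, and without that library the WKY mean was 15.6%. The shares of isoform 4 in SHR+Nef, from 3.57% to 6.04%, lay below all of those in SHR, from 6.64% to 15.8%, and in WKY, from 13.3% to 32.8%. Over 16637 isoforms of loci with more than 1 isoform, 0.379% had shares lower in SHR+Nef than in SHR without overlap, and 0.950% had shares lower in SHR+Nef than in WKY. The level of isoform 4 was not lower in SHR+Nef, so its smaller share goes with the larger values of the others.

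The share of isoform 5 went the other way, from 16.3% ± 1.54 in WKY through 24.4% ± 7.54 in SHR to 30.3% ± 6.96 under neferine (SD, n = 5 each). All SHR+Nef shares, from 24.02% to 40.9%, lay above all WKY shares, from 14.97% to 18.0%. Shares higher in SHR+Nef than in WKY without overlap were found for 1.21% of the 16637 isoforms. SHR ranged from 17.0% to 37.1% and overlapped each of the others through 1 library. Without SHR replicate 4, which stands apart, its lowest share was 21.9%, above all of WKY. Without SHR replicate 5, in which isoform 3 was at 0, its highest was 23.5%, below all of SHR+Nef.

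The share of isoform 2 averaged 19.8% ± 7.69 for WKY, 18.8% ± 4.07 for SHR and 25.3% ± 3.46 for SHR+Nef (SD, n = 5 each), and the groups overlapped in every pair. Isoform 6 had median shares of 27.1%, 35.7% and 30.6%, and isoform 3 of 14.7%, 10.2% and 11.3%, again with overlap in every pair. In shares, then, 1 of 5 isoforms was lower and 0 of 5 higher in SHR+Nef than in SHR without overlap, where 0.529% of the 16637 isoforms were higher. Leaving out SHR replicate 5 made these counts 2 lower (isoforms 4 and 6) and 1 higher (isoform 5), and leaving out SHR+Nef replicate 6 made isoform 2 higher. Between SHR and WKY the shares of all 5 isoforms overlapped, and 0.823% of the 16637 were higher and 1.01% lower in SHR without overlap. Without SHR replicate 4, 1 of 5 was higher in SHR, isoform 5. Isoforms 2 and 5 together, the pair that chose the locus, made up 36.1% ± 9.14 of the WKY sum, 43.1% ± 10.03 of the SHR sum and 55.6% ± 8.92 of the SHR+Nef sum (SD, n = 5 each). Isoform 4 was the lowest of the 5 in 5 of 5 SHR+Nef libraries, 2 of 5 SHR libraries and 2 of 5 WKY libraries. Isoform 5 or 6 was the highest in every SHR+Nef and every SHR library, and in WKY isoforms 2, 3 and 6 were each the highest in at least 1 library.

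**Figure D3:**
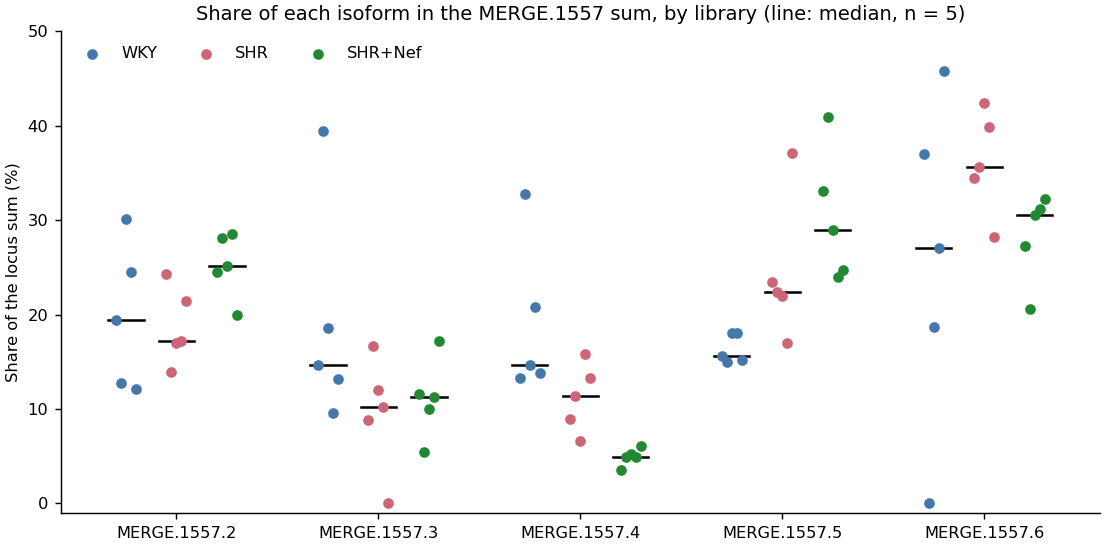
Share of each MERGE.1557 isoform in the sum of the 5 (y axis, percent) for every library, with the isoforms along the x axis and the groups by colour. The line is the median of 5. The SHR+Nef shares of isoform 4 lie between 3.57% and 6.04%, below the other groups, and the WKY shares of isoform 5 lie between 14.97% and 18.0%, below all SHR+Nef shares.

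Libraries of 1 group also differed among themselves. SHR replicate 3 was the highest SHR library for isoforms 2, 3, 5 and 6 and for the sum, and SHR replicate 4 was the highest for isoform 4. WKY replicate 4 was the highest WKY library for isoforms 2, 4 and 5 and for the sum. No such library ran through the neferine group, where the highest was replicate 5 for isoforms 2 and 6, replicate 6 for isoforms 3 and 4 and replicate 2 for isoform 5. SHR+Nef replicate 2, the highest for isoform 5, was the lowest for isoforms 3 and 6.

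After the group means were taken out, isoforms 2 and 5 varied together across the 15 libraries with a Pearson r of 0.68, and isoforms 2 and 6 with an r of 0.56. Isoform 3 stood apart from the called pair, with an r of -0.04 with isoform 2 and of -0.22 with isoform 5. These coefficients describe log2(value + 1) values that share libraries and the division of common reads. Over all 15 libraries with the group means left in, the r of every pair lay between 0.69 and 0.97, which mostly restates the separation of the groups.

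The numbers next to the locus were looked at because an assembly may number its loci in order, though the files give no positions. Of the 10 other loci numbered within 5 of it, 5 were listed for all libraries, and the number just below it was not analysed here. MERGE.1558, the number just above, stood at 13.9 ± 0.828 for WKY, 15.3 ± 1.49 for SHR and 14.3 ± 0.964 for SHR+Nef (SD, n = 5 each). The log2(value + 1) differences of the 5 loci between SHR+Nef and SHR ran from -0.36 to 0.25, and those between SHR and WKY from 0.05 to 0.52. In 0 of the 5 did SHR+Nef and SHR separate, and in 0 did SHR and WKY.

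**Figure D4:**
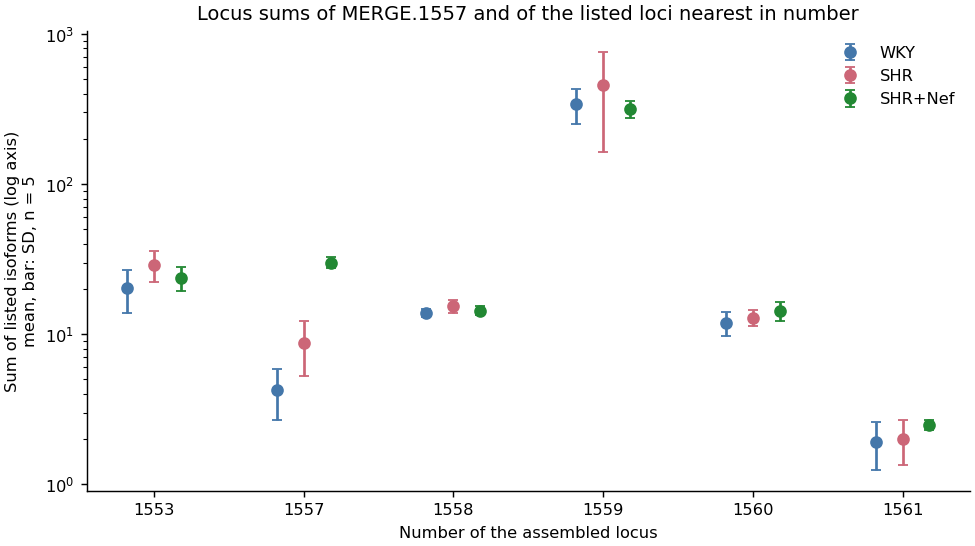
Sum of the listed isoforms (y axis, log axis) of MERGE.1557 and of the 5 listed loci nearest in number (x axis), by group. Points are means and bars SDs of 5 libraries. The points of MERGE.1557 run from 4.24 in WKY to 30.0 in SHR+Nef, while in each of the other loci the SHR values overlap with those of WKY and of SHR+Nef.

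Among the 29090 tested transcripts outside the locus, likeness to the locus sum was measured by the Pearson correlation of log2(value + 1) over the 15 libraries. The libraries fall into groups, so the coefficient takes in differences between group means as well as variation within groups, and a search over so many transcripts finds high ones in any case. The most alike was MERGE.26025.5, with an r of 0.87, at 1.48 ± 0.659 for WKY, 2.06 ± 1.20 for SHR and 4.04 ± 0.898 for SHR+Nef (SD, n = 5 each). MERGE.29462.4 followed with an r of 0.86, at 1.25 ± 0.413, 1.35 ± 0.468 and 2.33 ± 0.381 (SD, n = 5 each). With group means taken out these coefficients were 0.66 and 0.76. Both had smaller ranges than the locus sum and overlapped between SHR and SHR+Nef.

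In the opposite direction, MERGE.2361.1 had an r of -0.89, at 13.9 ± 1.70 for WKY, 11.3 ± 4.87 for SHR and 5.64 ± 0.702 for SHR+Nef (SD, n = 5 each). MERGE.7748.1 had an r of -0.86, at 2.87 ± 0.618, 2.33 ± 0.366 and 1.24 ± 0.236 (SD, n = 5 each). Within groups their coefficients were -0.64 and -0.08, so the second was alike in its group means and not in its variation among libraries of a group. Its SHR+Nef values, up to 1.52, lay below all of its SHR values, from 1.85, while those of MERGE.2361.1 overlapped. None of these 4 transcripts was called between SHR+Nef and SHR.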

How the data were processed

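For each library the authors deposited a table of signal values, 1 abundance per transcript, fractional and from 0 upward. The scale, aligner, assembler and estimator were not given in the sources used here. Both limma and mm10, which is a mouse build, are named in the submitters' processing notes, although the transcripts carry rat IDs. Per the labels' protocols, ribosomal RNA was removed from total RNA before NEB library preparation. On the values, the transcripts listed in all 15 libraries averaged 0.5 or more in SHR or in SHR+Nef, and an exact 0 can be a failed estimate. Depth in reads is unknown, so no counting intervals are given.

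Labels gave the groups and replicate numbers. Values at or above 1 in 5 or more libraries passed the filter, and log2(value + 1) was fitted with limma 3.58.1 in R 4.3.3 (trend and robust options, 3 groups in 1 model, 12 residual degrees of freedom, two-sided), with Benjamini-Hochberg adjustment over all 29095 transcripts. The fit was tested on simulated data with independent normal noise. The shift added there was larger than any difference of this locus between SHR+Nef and SHR. That test thus does not cover calls of the size reported here. Standard errors come from this model, and from the same model fitted on locus sums. Sums and shares used Python 3.11.15 and figures matplotlib 3.10.9. No 2 libraries were copies, the smallest SD of log2 differences between any pair being 0.901. The locus, its isoforms and the analyses were chosen with earlier results of these data known. Transcripts outside the locus were named by a rule: the 2 with the highest and the 2 with the lowest correlation with the locus sum. The alternatives were a pseudocount of 0.1, median scaling, quantile normalization, a replicate block, other filters, limma without the 2 options, only SHR and SHR+Nef in the model, pooled shares and each library left out.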

Additional observations from a re-analysis of the deposited data

How the results depend on the processing

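The sum over isoforms above 0 in every library and the overlap count after quantile normalization were chosen after seeing the data. The log2 difference of the MERGE.1557 sum kept its direction in every alternative run, between 1.65 and 1.92 for SHR+Nef against SHR, 0.70 and 1.02 for SHR against WKY and 2.49 and 2.75 for SHR+Nef against WKY with 1 library left out. With the sum restricted to isoforms 2, 4 and 5 it was 1.80, 0.76 and 2.56 in that order. The scaling alternatives left each sum apart from the others. Isoform 3 changed direction between SHR and WKY, to -0.17 with the pseudocount of 0.1 and to -0.085 without SHR replicate 3.

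Between SHR+Nef and SHR, transcripts called numbered 0 with the pseudocount of 0.1 (1693 with an unadjusted p under 0.05, limma), 0 with a minimum of 5 in 5 libraries (680), where isoforms 3 and 4 were not tested, and 4 with only SHR and SHR+Nef in the model, where isoform 5 was not called. Of the locus, 0, 0 and 1 isoforms were then called. Leaving out single libraries gave 2 to 5 called transcripts, isoforms 2 and 5 among them in each such fit. The count was highest, 5, when SHR replicate 1 was dropped, and was 4 when SHR replicate 2 or neferine replicate 1, 2 or 5 was dropped. The cause was not tested. Under the replicate block limma called 0 transcripts and 0 isoforms of the locus, 1905 transcripts having an unadjusted p under 0.05, and the sum differed by 1.78 between SHR+Nef and SHR with a standard error of 0.28. Isoform 2 differed by 1.88 with a standard error of 0.23 there, against 1.735 and 0.209 in the main fit. Isoform 5 differed by 1.85 with a standard error of 0.26, against 1.732 and 0.207. The block leaves fewer residual degrees of freedom, and neferine replicate 6 has no library of equal number in the other groups. What an equal replicate number stands for is not known here. Deviations from the group means correlated at -0.0672 to 0.0909 over 13 pairs of same-numbered libraries. Over 62 pairs with different numbers they correlated at -0.125 to 0.147. Whether the number marks a batch was not tested.

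Isoforms with SHR+Nef and SHR apart numbered 2 to 4 when single libraries were dropped: 4 without SHR replicate 3, 4 without neferine replicate 2 and 3 without SHR replicate 4. Those with SHR and WKY apart numbered 1 to 2, the latter after dropping SHR replicate 5 or WKY replicate 4 or 5. Shares apart, a count added after seeing the data, numbered 0 to 1 higher and 1 to 2 lower in SHR+Nef than in SHR and 0 to 1 higher in SHR than in WKY when single libraries were dropped. Mean shares moved by less than 1 SD in all 90 alternative values. Most of these left out 1 of 5 libraries, which cannot move a mean by as much as 1 SD. For those values the result was fixed in advance and tells nothing about how stable the shares are. Only the pooled shares could have moved further, and they did not.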

Other observations

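Groups of 5 were searched in 33 sets of values (5 isoforms, their sum and their shares in 3 groups) for a library far from the rest by Dixon's ratio, of which chance would pick out about 1 in 20, and 0 were picked out. SHR replicate 3, the highest SHR library for the sum at 14.6, was below the critical ratio only by a narrow margin. The next highest SHR sum was 8.93, in replicate 4, and the lowest was 6.53, in replicate 1. The search thus does not show that SHR replicate 3 is an ordinary library of its group.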
